A study of Artemia franciscana with 14 samples.

Results

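The MSL complex genes of the brine shrimp *Artemia franciscana* are described here in 12 single embryos and 2 adults. They are 5 of the 19421 genes in the count table: MOF (jg3349), MSL1 (jg9702), MSL2 (jg13090), DHX9/MLE (jg10843) and MSL3/MRG15 (jg12255). They were chosen by gene number, as orthologues of the *Drosophila* complex, under a rule that uses no measured value. The number of MOF is in the primer list of the study, whereas those of the other 4 were taken as given in the rule, since the text used here does not pair them with names. All animals were wild-type. Embryos were taken at 1–2 days post-fertilization (dpf), the blastula stage, and at 4 dpf, after gastrulation, with 3 female and 3 male embryos per stage. The early stage holds 2 embryos of 1 dpf, female replicate 3 and male replicate 1, beside 4 of 2 dpf. The adults were 1 female (replicate 3) and 1 male (replicate 1), without replicates, and the methods describe dissected adults without their germline. The sex of an embryo is the one in its label. Embryos show no visible sex, and the study inferred it from expressed variants in the differentiated part of the Z chromosome. That inference used the RNA-seq reads of the embryos themselves, so the sex labels are not independent of them.

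In *Drosophila*, the complex binds the X chromosome of males and raises its transcription, which compensates for their single X. MOF is the acetyltransferase that places acetyl groups on lysine 16 of histone H4 (H4K16ac). MSL1 is the scaffold, MSL2 is the RING-finger protein whose translation is blocked in female flies, MLE is an RNA helicase, and MSL3 is a chromodomain protein of the MRG family, related to MRG15. *A. franciscana* has ZW females and ZZ males, so the sex with the single Z is the female. The libraries bear on whether RNA of any of these genes is higher in females, or rises in females between the stages.

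Library totals were between 2669131 and 7463397 reads in embryos, 3342959 for the adult female and 1840926 for the adult male. Of the 5 genes, all were above 3 reads in 10 of the 12 embryos. The exceptions were female replicate 12 at 1–2 dpf, with 0 reads of MSL1 and MSL2, and male replicate 8 at 4 dpf, with 0 reads of MSL2. Female replicate 12 stood apart across the genome: 6414 genes had a read there, against 10045 to 10842 in the other embryos of the stage. Of 5840 genes with at least 10 CPM (reads scaled to a common library total) on average in those other embryos, 17.0% had 0 reads in it, whereas the other 5 embryos had 0 reads for between 0.491% and 1.29% of such genes. Male replicate 8 had the lowest total of all embryos. CPM values below were scaled by TMM over all 14 libraries, and 3 reads, taken as the detection floor, correspond to between 0.405 and 0.979 CPM in an embryo. Gene lengths are not known, so levels are compared within a gene and not between genes. The libraries were made from whole embryos or bulk adult tissue, in which fewer expressing cells and less RNA per cell cannot be told apart.

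MOF, the catalytic subunit, was detected in every embryo. At 1–2 dpf it had 13.1, 20.2 and 35.6 CPM in females and 21.7, 29.4 and 34.3 CPM in males. At 4 dpf it had 19.3, 35.4 and 47.5 CPM in females and 5.22, 18.4 and 44.4 CPM in males. The 4 groups overlapped throughout, and the lowest value, from 16 reads, was that of male replicate 8. Males at 4 dpf spread most, with an 8.51-fold range.

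MSL1, the scaffold, had 0, 13.8 and 19.9 CPM in females and 11.3, 15.5 and 22.0 CPM in males at 1–2 dpf. At 4 dpf it had 22.1, 27.9 and 31.4 CPM in females and 13.1, 17.9 and 36.7 CPM in males. The female groups of the stages did not overlap, with all 3 values at 4 dpf above the early ones, while the male groups did. Such a separation in females was found for 25.5% of the 9912 genes with a mean of at least 1 CPM there, and in males for 23.7% of 10132 genes, among them none of the 5.

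MSL2, the RING-finger subunit, was the least regularly detected of the 5. It had 0, 9.06 and 9.69 CPM in females and 0.885, 9.21 and 10.6 CPM in males at 1–2 dpf, the value of 0.885 CPM being 4 reads in male replicate 1. At 4 dpf it had 4.51, 6.83 and 7.81 CPM in females and 0, 3.01 and 7.29 CPM in males. Apart from the libraries at 0 and the one at 4 reads, MSL2 had between 18 and 54 reads per embryo. The floors of the embryos with 0 reads were 0.655 CPM in female replicate 12 and 0.979 CPM in male replicate 8. A level of 3.01 CPM, the lowest one detected at 4 dpf, was above both. The floors count reads only. In female replicate 12, 17.0% of genes with at least 10 CPM on average in the other embryos of the stage had 0 reads. In male replicate 8 that share was 1.69%. A count of 0 thus does not show that MSL2 was absent.

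DHX9/MLE, the RNA helicase, was detected with 401 to 1854 reads in every embryo. At 1–2 dpf it had 125, 138 and 236 CPM in females and 185, 212 and 213 CPM in males. At 4 dpf it had 176, 178 and 214 CPM in females and 131, 242 and 250 CPM in males. From its lowest to its highest embryo its level differed 2.00-fold, and the lowest values were those of female replicate 12 and male replicate 8.

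MSL3/MRG15, the chromodomain subunit, had 202 to 840 reads per embryo. At 1–2 dpf it had 44.1, 85.5 and 104 CPM in females and 61.9, 65.9 and 74.6 CPM in males. At 4 dpf it had 54.3, 90.4 and 131 CPM in females and 67.9, 81.6 and 113 CPM in males. The males lay within the range of the females at both stages, and its level differed 2.98-fold over all embryos.

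**Figure D1:**
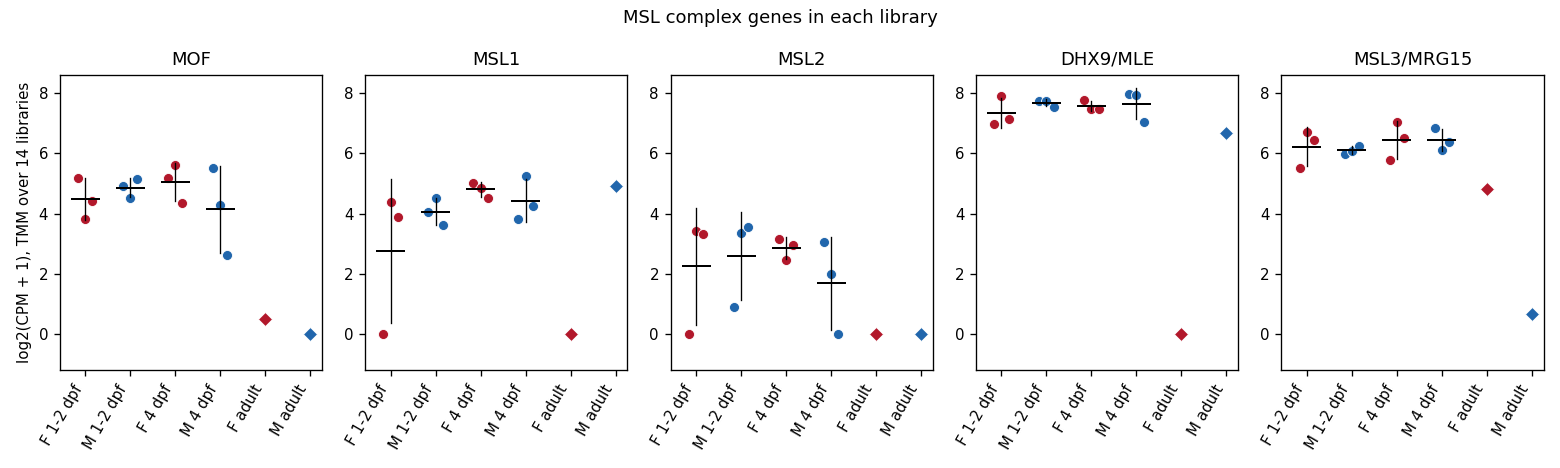
Level of each MSL complex gene, as log2(CPM + 1) with TMM scaling over 14 libraries, in females (F, red) and males (M, blue); circles are single embryos, diamonds single adults, horizontal bars group means and vertical bars 1 SD (n = 3). Embryo groups overlap for each gene in each sex comparison, and of the adults only the male has MSL1 and DHX9/MLE above the floor, and only the female MSL3/MRG15.

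The 5 genes differed in how closely embryos of a group agreed. The standard deviation of log2 CPM within groups, pooled over the 4 embryo groups, was 0.36 for DHX9/MLE, 0.50 for MSL3/MRG15, 0.91 for MOF, 1.61 for MSL1 and 1.92 for MSL2. The median over 10166 genes with a mean of at least 1 CPM was 1.11. DHX9/MLE varied less than all but 7.44% of these genes, and MSL2 more than 91.4% of them. The standard deviations rose as the mean level in embryos fell, from 192 CPM for DHX9/MLE to 5.74 CPM for MSL2. The 10166 genes were not matched for level, and the values of MSL1 and MSL2 include embryos at 0 reads. These places are therefore not traits of the subunits apart from their level. The coefficient of variation expected from counting alone was between 2.85% and 3.88% for DHX9/MLE in the 4 groups, whereas the observed values were between 7.80% and 36.6%. For MSL2, counting alone gave between 17.0% and 20.6%, and the observed values were between 26.6% and 107%. Reads were not collapsed by molecular identifier, so counting errors are lower limits.

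Females were compared with males in each stage by edgeR (quasi-likelihood F test), in which each of the 5 genes passed the filter on low counts. At 1–2 dpf, 0 of the 5 genes and 0% of 8089 genes tested had an adjusted p-value under 0.05, and at 4 dpf 0 of the 5 and 0% of 8979 genes. At an unadjusted p-value under 0.05 the counts were 490 genes at 1–2 dpf and 317 at 4 dpf, again with none of the 5. With DESeq2 56 and 26 genes passed the adjusted threshold, and none of them was an MSL complex gene. The sexes overlapped for all 5 genes at each stage, and groups that did not overlap were found for 15.8% of 9673 genes at 1–2 dpf and 10.5% of 10113 genes at 4 dpf.

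Over both stages, with stage as a covariate, 0 of the 5 genes and 0.0203% of 9833 genes were called, which were 2 genes higher in females. The intervals of the difference were narrow for some genes and wide for others. For DHX9/MLE the ratio of females to males was 0.853, with a 95% interval from 0.608 to 1.2. For MSL3/MRG15 it was 1.09, with an interval from 0.716 to 1.67. Over both stages, a 2-fold higher level in females lies outside both intervals. At 1–2 dpf alone it lies inside that of MSL3/MRG15 (from 0.594 to 2.23) and outside that of DHX9/MLE (from 0.475 to 1.39). At 4 dpf alone it lies outside both, from 0.582 to 1.90 for MSL3/MRG15 and from 0.582 to 1.43 for DHX9/MLE.

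For MOF the ratio was 1.09, with an interval from 0.517 to 2.30, and for MSL1 it was 0.904, from 0.299 to 2.73. For MSL2 it was 1.27, from 0.255 to 6.35. A 2-fold difference in either direction lies inside the intervals of MSL1 and MSL2. For MOF a 2-fold higher level in females lies inside the interval and a 2-fold lower one outside it. Adjusted p-values for the 5 genes from edgeR over both stages were between 0.920 and 0.983.

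**Figure D2:**
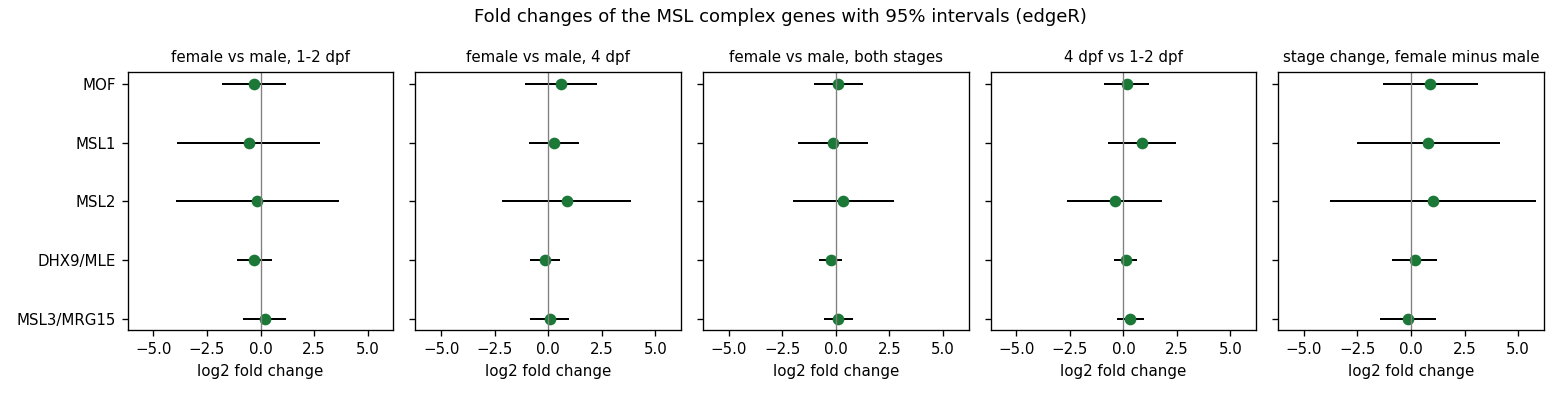
Log2 fold changes (points) with 95% intervals (bars) of the 5 genes from edgeR, for females against males in each stage and over both, for 4 dpf against 1–2 dpf, and for the change between the stages in females minus that in males. Each interval includes 0; those of DHX9/MLE and MSL3/MRG15 are the shortest and those of MSL2 the longest in each panel.

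Between the stages, over both sexes, 8.0% of 8362 genes were called, of which 373 rose and 296 fell by 4 dpf, and 0 of the 5 MSL complex genes were among them. At an unadjusted p-value under 0.05 there were 1763 genes, again with none of the 5. The stages overlapped for all 5, and did not overlap for 6.64% of 10166 genes. The estimates at 4 dpf relative to 1–2 dpf were 1.81-fold for MSL1 (95% interval from 0.627 to 5.24), 1.25-fold for MSL3/MRG15 (from 0.828 to 1.87), 1.11-fold for MOF (from 0.543 to 2.25), 1.08-fold for DHX9/MLE (from 0.773 to 1.5) and 0.756-fold for MSL2 (from 0.169 to 3.39). The smallest adjusted p-value of the 5, from edgeR, was 0.555, for MSL1. Of the 5 estimates 4 were positive, with a median of 0.15 on the log2 scale, beside a median of 0.04 over all genes tested. Over both sexes, a 2-fold rise lies outside the intervals of DHX9/MLE and MSL3/MRG15. Within a sex it lies outside those of DHX9/MLE (from 0.670 to 1.95 in females and from 0.637 to 1.65 in males). It lies inside those of MSL3/MRG15 (from 0.551 to 2.58 in females and from 0.809 to 2.11 in males).

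Within a sex, 1.78% of 8392 genes were called between the stages in females and 3.33% of 8772 genes in males, in each case with 0 of the 5 genes, also at an unadjusted p-value under 0.05 (1200 and 1463 genes). MSL1 in females, whose stages did not overlap, had an estimated difference of 1.28 on the log2 scale, with a standard error of 1.36 (adjusted p = 0.753 from edgeR). Without female replicate 12, the embryo at 0 reads, it was 0.68 (standard error 0.56, adjusted p = 0.64). In males it was 0.48 (standard error 0.56, adjusted p = 0.743). Whether a gene changed more in one sex was tested as an interaction of sex and stage, in which 0 of the 5 and 0% of 9833 genes were called, while 543 genes, but none of the 5, passed an unadjusted threshold of 0.05. With DESeq2 the interaction was called for 35 genes and none of the 5. The intervals of the interaction were wide: for MOF the change in females relative to that in males could lie between 0.414-fold and 8.40-fold, and for MSL2 between 0.0749-fold and 54.7-fold. For DHX9/MLE, the best measured, it was between 0.566-fold and 2.24-fold.

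Ratios between subunits were taken within each embryo, as the ratio of reads of a pair of genes with 0.5 added to each count, so that they do not depend on how a library was scaled. There are 10 pairs. The absolute ratio includes the unknown lengths of the genes, so differences of a ratio between embryos were compared. DHX9/MLE to MSL3/MRG15 was the steadiest ratio, between 1.35 in female replicate 11 at 4 dpf and 3.93 in female replicate 10 of the same group, which is a 2.91-fold range with a standard deviation of 0.50 on the log2 scale. Its extremes were thus 2 females of the same age. It was 1.61, 2.26 and 2.83 in females and 2.48, 3.22 and 3.44 in males at 1–2 dpf, and 1.60, 2.21 and 3.56 in males at 4 dpf.

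MOF to DHX9/MLE ranged 6.95-fold, between 0.0411 in male replicate 8 at 4 dpf and 0.286 in female replicate 12 at 1–2 dpf. MOF to MSL3/MRG15 ranged 12.3-fold between the same 2 embryos. The other 7 pairs include MSL1 or MSL2. In each of them at least 1 extreme was that of an embryo at 0 reads, where the ratio depends on the 0.5 added. In the 11 embryos with reads of MSL1, DHX9/MLE had between 6.38 and 19.1 times as many reads as MSL1, with a median of 9.67.

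Of the 10 ratios, 0 differed between the stages and 0 between the sexes at an unadjusted p-value under 0.05, by two-sided exact permutation tests over 924 splits of the 12 embryos and over 400 relabelings of sex within stage. The smallest p-value between the stages was 0.0541, for MSL1 to DHX9/MLE (exact permutation test), and it was 0.541 adjusted over the 10 ratios. This ratio was 1.64 higher at 4 dpf on the log2 scale, and 0.54 higher without female replicate 12 (exact permutation p = 0.104). Leaving out 1 of 5 other embryos brought it past the unadjusted threshold, with differences between 1.82 and 1.92 (exact permutation p between 0.0173 and 0.0498): female replicates 3 and 9 and male replicates 1 and 2 at 1–2 dpf, and male replicate 2 at 4 dpf. In 5 of the 6 embryos at 4 dpf it was above all 6 early embryos, the exception being male replicate 2. Between the sexes the smallest was 0.205, for MSL1 to MSL2 (exact permutation test, 0.890 adjusted over the 10 ratios), with a difference of -1.43 between females and males on the log2 scale. With 1 embryo left out this difference lay between -2.16, without male replicate 2 at 4 dpf (exact permutation p = 0.025), and -0.67, without male replicate 8 at 4 dpf (exact permutation p = 0.425). DHX9/MLE to MSL3/MRG15 differed by -0.19 between the stages and by -0.28 between females and males on the log2 scale.

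**Figure D3:**
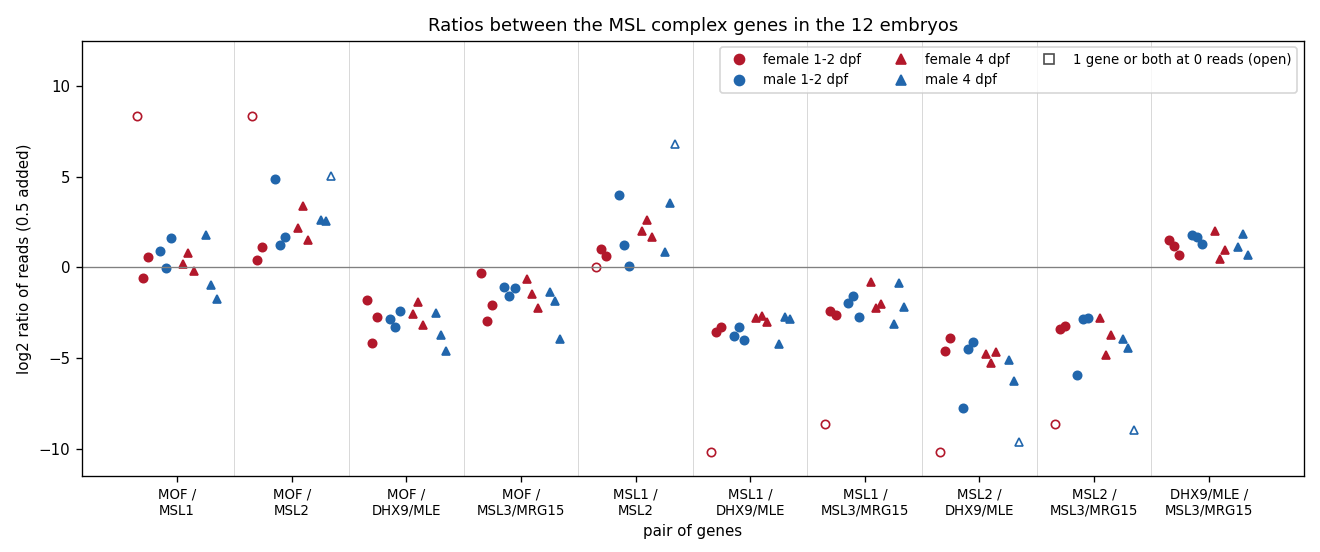
Ratio of reads between each pair of the 5 genes in the 12 embryos, as log2 with 0.5 added to each count; circles are 1–2 dpf and triangles 4 dpf embryos, red females and blue males, and open symbols mark embryos in which 1 gene of the pair or both had 0 reads. The pair DHX9/MLE and MSL3/MRG15 spans 2.91-fold, and the widest spans belong to pairs with open symbols.

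Levels in the adults were below those of the embryos for most of the complex. MOF had 1 read in the female adult and 0 reads in the male, against 16 to 329 reads in the embryos. In the adult female this is 67.0-fold below the mean at 4 dpf of 28.4 CPM, with a 95% counting interval from 12-fold to 2645-fold. In the adult male it is at least 16.4-fold lower, at a floor of 3 reads in that library. The counting intervals and bounds of the adults cover their reads only, and not the spread between embryos or between adults.

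DHX9/MLE, the gene that varied least between embryos, had 0 reads in the adult female, at least 156-fold below the mean of 198 CPM at 4 dpf. In the adult male it had 175 reads, or 101 CPM, which is 1.97-fold below that mean (95% counting interval from 1.70-fold to 2.30-fold) and below each of the 12 embryos. Of 1187 genes with more than 3 reads in each embryo at 4 dpf and a mean between 100 and 1000 CPM there, as DHX9/MLE has, 10.4% had 3 reads or fewer in the adult female, and 9.52% did in the adult male.

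MSL3/MRG15 showed the opposite split. It had 64 reads, or 27.1 CPM, in the adult female, 3.31-fold below the mean of 89.8 CPM at 4 dpf (95% counting interval from 2.59-fold to 4.30-fold). In the adult male it had 1 read, 156-fold below that mean, with a counting interval from 28.0-fold to 6168-fold. Both adults lay below all 12 embryos.

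MSL1 had 0 reads in the adult female, at least 19.5-fold below the mean at 4 dpf of 24.8 CPM. In the adult male it had 51 reads, or 29.3 CPM, which is above 10 of the 12 embryos and within their range. MSL2 had 0 reads in both adults, at least 3.86-fold and 2.84-fold below the mean of 4.91 CPM at 4 dpf in the female and the male, and 1 of the 6 embryos at 4 dpf was at 0 as well. In the adult male, DHX9/MLE had 3.43 times as many reads as MSL1 (exact 95% counting interval from 2.50 to 4.78), below the lowest ratio among embryos of 6.38.

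The adult libraries lacked many other genes too. Of 6928 genes with more than 3 reads in each embryo at 4 dpf, 32.3% had 3 reads or fewer in the adult female, 33.6% did in the adult male, and for 28.0% this held in exactly 1 of the 2 adults. Of the 4 MSL complex genes that meet this condition, all but MSL2, 3 were at 3 reads or fewer in the adult female (MOF, MSL1 and DHX9/MLE), 2 in the adult male (MOF and MSL3/MRG15), and 3 in exactly 1 adult (MSL1, DHX9/MLE and MSL3/MRG15). The adults did not overlap with the 12 embryos for MOF, DHX9/MLE and MSL3/MRG15, and for 26.9% of 10862 genes. Each sex is 1 adult library, so a difference between the adults has no replicate check. Adult RNA was brought to a fixed amount before cDNA synthesis, whereas embryo RNA was too little to be quantified, so the RNA input and the stage cannot be told apart.

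Over both sexes, the 2 adults were tested against the 6 embryos at 4 dpf. MOF was called lower (adjusted p = 0.00724 from edgeR), the other 4 were not, and 30.2% of 10417 genes were called, 1111 higher and 2038 lower in adults. Adjusted p-values from edgeR were 0.0675 for MSL2, 0.0832 for MSL3/MRG15, 0.284 for DHX9/MLE and 0.675 for MSL1. The fitted log2 fold changes of the 5 had a median of -2.67, or -1.97 with MSL2, at 0 reads in both adults, set to its bound at 3 reads per library, beside a median of -0.75 over all genes tested. These medians moved with either adult. Without the adult male the fitted median was -7.62, or -4.29 with the 3 genes at 0 reads in the adult female at their bounds, beside -1.47 over all genes. Without the adult female it was -7.25, or -1.51 with the 2 genes at 0 reads in the adult male at their bounds, beside -1.68. MOF was called in each alternative, with adjusted p-values between 0.000276 and 0.0248. DESeq2 also called MSL2 and MSL3/MRG15 (adjusted p = 0.0153 and 0.0176). Calls changed with single libraries, and with 1 adult its spread is assumed to be that of the embryos. Without the adult male, DHX9/MLE and MSL1 were called (adjusted p = 8.7e-05 and 0.00222 from edgeR). Without the adult female, MSL3/MRG15 was called (adjusted p = 0.000737), and without male replicate 8 at 4 dpf, MSL2 was (adjusted p = 0.0161).

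Other enzymes of histone acetylation were read in the same libraries for comparison, namely the acetyltransferases CBP (jg3149), GCN5 (jg16372) and TIP60 (jg7034), and the deacetylase SIRT1 (jg8800), whose *Drosophila* counterpart removes H4K16ac. None of the 4 passed the test in a comparison between embryos, and TIP60 fell below the filter between the stages in females. Female replicate 12 had 0 reads of CBP and TIP60, beside MSL1 and MSL2. In the adults CBP and TIP60 had 0 reads in both libraries, like MSL2, against 13.5 to 64.8 CPM and 1.37 to 17.1 CPM in the embryos at 4 dpf. Both are in the RT-qPCR primer list of the study, so 0 reads here does not show absence from adults. GCN5 had 14.4 CPM in the female adult and 9.20 CPM in the male, below each embryo. CBP, GCN5 and TIP60 were called lower in adults (adjusted p = 0.00196, 0.00959 and 0.0252 from edgeR). SIRT1 was not (adjusted p = 0.527), with 135 CPM in the adult female, within the range of the embryos, and 32.2 CPM in the adult male, below it.

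The number of MSL1, jg9702, lies between those of jg9331 and jg9743 in the primer list of the study. Here jg9331 was taken as a gene of the pseudoautosomal region (PAR) of the Z. Gene jg9743 was taken as one of the differentiated part, Z(diff). The text of the primer list gives no region for either. The region of MSL1 itself is not given in the sources used here, and a gene number was not taken as a position. At 1–2 dpf jg9331 had 96.9, 138 and 147 CPM in females and 64.6, 80.3 and 80.4 CPM in males, without overlap, and at 4 dpf 141, 180 and 184 CPM in females and 116, 153 and 176 CPM in males. Its sex difference over both stages was 0.46 on the log2 scale (standard error 0.22, adjusted p = 0.905 from edgeR). Gene jg9743 had 6.55 CPM in female replicate 12 and 54.6 CPM or more in the other embryos. Its difference over both stages was -0.47 (standard error 0.50, adjusted p = 0.922 from edgeR). Within a stage it was -1.07 (standard error 0.85) at 1–2 dpf and 0.14 (standard error 0.23) at 4 dpf. For MSL1 the difference over both stages was -0.15 (standard error 0.74, adjusted p = 0.983 from edgeR).

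The reference genes of the RT-qPCR of the study were read in the same libraries. The study used them to normalize young and old adults, and not embryos. The comparisons below are therefore not those in which they served as references. Gene jg15373 rose between the stages by 2.51 on the log2 scale (standard error 0.37, adjusted p = 0.000557 from edgeR), from between 77.3 and 278 CPM at 1–2 dpf to between 445 and 1909 CPM at 4 dpf. Gene jg3163 did not pass (log2 fold change -0.34, standard error 0.27, adjusted p = 0.531). It was higher in the adults, with 443 and 198 CPM against 48.9 to 91.4 CPM at 4 dpf (adjusted p = 0.00254 from edgeR).

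For each of the 5 genes, the genes most like it over the 12 embryos were found by Pearson correlation of log2 CPM, among the other genes with a mean of at least 10 CPM (5990 genes, or 5991 for MSL2, which is itself below that mean). The 12 points share library depth, stage and the low detection of female replicate 12. The 2 genes named for each member were picked for the highest r, so their r values are not a test of a link. For MOF they were jg7577 and jg17290, with r = 0.842 and 0.841, and for MSL3/MRG15 jg5541 and jg13834, with r = 0.887 and 0.830. For DHX9/MLE they were jg1030 and jg15040, with r = 0.907 and 0.889. For MSL2 they were jg8086 and jg6008, with r = 0.901 and 0.90. The choice depended on the measure: by Spearman correlation the first 2 genes shared 0 with those named for MOF and for MSL2, and 1 for each of MSL1, DHX9/MLE and MSL3/MRG15.

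For MSL1 the leading genes were jg17378 and jg16086, with r = 0.978 and 0.977. There, 353 genes reached an r of 0.9, against between 0 and 2 genes for each of the other 4. Without female replicate 12, r fell to 0.798 for jg17378 and 0.885 for jg16086. Among the 5 genes themselves, the highest r was that of MSL1 and DHX9/MLE, 0.563, which put MSL1 at rank 783 of the genes most like DHX9/MLE, and it was 0.247 without female replicate 12. MOF and MSL1 had r = -0.213, and MSL3/MRG15 and DHX9/MLE r = 0.224.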

How the data were processed

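Low-input RNA-seq of 12 single embryos and 2 adults of *A. franciscana* (polyA RNA, SMART-Seq) was used. The deposited table holds raw counts, which the authors made by trimming, mapping and counting with the Cogent NGS Analysis Pipeline, from all reads and without collapsing by UMI. Columns were matched to samples by barcode. Counts were tested in R 4.3.3 with edgeR 4.0.16 (filterByExpr, TMM, quasi-likelihood F test, Benjamini-Hochberg over all genes tested, threshold 0.05). Standard errors were derived from the fold change and its F statistic. Levels are CPM with TMM over 14 libraries. Ratios were tested in Python 3.11.15 by exact permutation. The fits were tested on simulated data. Labels do not state whether embryos of a group came from separate broods.

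The genes named are the 5 members, and the other acetylation enzymes and RT-qPCR reference genes that the paper gives by number. Also named are jg9331 and jg9743 of its primer list, whose numbers enclose MSL1, and 2 genes most like each member. Members and lists were chosen with earlier results of these data known. Alternatives were DESeq2 1.42.0, RLE and upper quartile scaling, no filter, 2 dpf embryos only, a sex covariate, and each library left out. None of the 19421 identifiers was found in the RefSeq table used for names, so no sequence or position is shown.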

Additional observations from a re-analysis of the deposited data

How the results depend on the processing

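Of the 35 fold changes of the 5 genes between embryos, 0 passed the threshold in any of 475 alternative fits, with a smallest adjusted p-value of 0.314. The sign changed in 35 of these fits, for 17 fold changes whose main values were at most 0.55 in size; with such values no direction can be given. With embryos of 2 dpf only, MSL3/MRG15 was -0.22 between the sexes at 1–2 dpf, -0.0035 over both stages and 0.19 in the interaction. With each library left out in turn, the log2 fold change between the sexes at 1–2 dpf ranged from -1.23 to 0.040 for MSL1, from -0.67 to 0.43 for MSL2 and from -0.047 to 0.48 for MSL3/MRG15. At 4 dpf it ranged from -0.013 to 0.80 for MSL1, from -0.39 to 0.020 for DHX9/MLE and from -0.28 to 0.35 for MSL3/MRG15. Over both stages it ranged from -0.14 to 0.48 for MOF, from -0.35 to 0.18 for MSL1 and from -0.00015 to 0.27 for MSL3/MRG15. Between the stages it ranged from -0.075 to 0.36 for MOF over both sexes, in females from -0.56 to 0.48 for MSL2 and from -0.11 to 0.54 for MSL3/MRG15, and in males from -1.25 to 0.14 for MOF, from -0.056 to 0.76 for MSL1 and from -0.12 to 0.28 for DHX9/MLE. The interaction ranged from -0.080 to 0.48 for DHX9/MLE and from -0.51 to 0.15 for MSL3/MRG15.

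Between adults and 4 dpf embryos, 1 of the 5 genes was called, 3 with DESeq2 and 1 to 3 with a library left out, and the fold change of MSL1 ranged from -9.95 without the adult male to 0.22 without the adult female. RLE scaling raised the median log2 fold change over all genes in this comparison by 0.33, and MOF stayed called. The level of MSL3/MRG15 in the adult female relative to 4 dpf was -1.63 on the log2(CPM + 1) scale and -2.20 without TMM.

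Counts over all genes depended on the method. DESeq2 called 56 genes between the sexes at 1–2 dpf, 26 at 4 dpf and 18 over both stages, 1144 between the stages, 624 in females, 838 in males and 35 in the interaction. Without the filter on low counts there were 12 and 4 genes between the sexes at 1–2 and 4 dpf, 328 and 501 between the stages in females and males, and 6 in the interaction. RLE scaling gave 2 in the interaction. Embryos of 2 dpf only gave 19 genes between the sexes at 1–2 dpf, 1 over both stages, 398 between the stages in females and 45 in the interaction. With a library left out the counts were 0 to 12, 0 to 3 and 0 to 4 between the sexes at 1–2 dpf, at 4 dpf and over both stages, 69 to 398 and 65 to 366 between the stages in females and males, and 0 to 22 in the interaction. The cause was not tested.

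Of the 20 differences of ratios, 10 changed sign in 28 of 260 alternatives, and 3 reached an unadjusted exact permutation p-value under 0.05 with an embryo left out: MSL1 to DHX9/MLE between the stages, MSL1 to MSL2 between the stages (2.32 without male replicate 1 at 1–2 dpf, exact permutation p = 0.0195) and MSL1 to MSL2 between the sexes. Between the stages 0 to 2 ratios and between the sexes 0 to 1 did so. With an embryo left out, the difference between the stages ranged from -0.59 to 1.00 for MOF to MSL2, from -0.45 to 0.11 for MOF to DHX9/MLE, from -0.68 to 0.018 for MOF to MSL3/MRG15, from -0.98 to 0.62 for MSL2 to DHX9/MLE and from -1.14 to 0.53 for MSL2 to MSL3/MRG15. Between the sexes it ranged from -0.14 to 2.10 for MOF to MSL1, from -1.44 to 0.54 for MOF to MSL2, from -0.17 to 0.51 for MOF to MSL3/MRG15, from -1.35 to 0.36 for MSL1 to DHX9/MLE and from -0.40 to 1.28 for MSL2 to MSL3/MRG15.

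There were 3 embryos per sex and stage, 1 adult per sex and fewer than 60 reads of MSL2 per library. In the sex comparison over both stages, a 2-fold difference in either direction lay outside the intervals of DHX9/MLE and MSL3/MRG15. The same held in the stage comparison over both sexes. In the interaction, a 2-fold larger change in females lay inside both intervals. A 2-fold smaller one lay inside that of MSL3/MRG15 (from 0.384-fold to 2.20-fold) and outside that of DHX9/MLE. No paired analysis was possible, because each library is a different animal and the labels do not give broods.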
